A study of Gossypium herbaceum with 12 samples.

Results

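The probe sets described here measure 4 enzymes of proline, raffinose and inositol metabolism: pyrroline-carboxylate synthase (P5CS2), raffinose synthase, myo-inositol-1-phosphate synthase 2 (MIPS2) and inositol oxygenase. They were found by searching for the names of these enzymes in the annotation of the lists of probe sets that differ between the accessions by the study's account. Those 4 lists cover 1712 of the 24132 probe sets on the Affymetrix Cotton Genome array. The search gave 8 probe sets, 2 for P5CS2, 2 for raffinose synthase, 1 for MIPS2 and 3 for inositol oxygenase. Each name is that of the closest Arabidopsis protein. The probe sets of P5CS2 are GhiAffx.62451.1.S1_at and GraAffx.27366.1.S1_at, those of raffinose synthase Ghi.8192.2.S1_s_at and GhiAffx.16092.1.A1_s_at, and that of MIPS2 is Ghi.9535.1.S1_s_at. Inositol oxygenase has Ghi.8187.2.A1_at, GhiAffx.4265.1.S1_at and GraAffx.9655.1.S1_s_at. Within an enzyme each prefix occurs in 1 identifier, so the probe sets are told apart below by it. One further probe set, with the prefix GraAffx, falls just outside. Its annotation misspells the name of MIPS2, as that of Ghi.9535.1.S1_s_at does, but lacks the added name inositol-3-phosphate synthase by which Ghi.9535.1.S1_s_at was found.

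Leaf RNA was taken from 12 Gossypium herbaceum plants, aged 1 month per the labels and grown in soil in earthen pots in a greenhouse, with 1 plant on each array. Each of 4 groups held 3 plants: Vagad under drought, Vagad irrigated, RAHS-14 under drought and RAHS-14 irrigated. The labels call Vagad drought tolerant and RAHS-14 drought sensitive. Drought was imposed by holding back water from the pots, with an occasional watering, until its effects could be seen, whereas irrigated pots were watered daily. Each accession stands for its phenotype alone, so tolerance cannot be told apart from any other difference between Vagad and RAHS-14.

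Proline, raffinose-family sugars and inositol are compatible solutes, small molecules that plant cells can hold in quantity without harm to their proteins and that often build up when water is short. P5CS reduces glutamate in the controlling step of proline synthesis. MIPS turns glucose 6-phosphate into inositol phosphate, the source of all newly made inositol, and inositol is in turn needed to make galactinol. Raffinose synthase, also called galactinol-sucrose galactosyltransferase, moves the galactose of galactinol onto sucrose and sets the inositol free again. Inositol oxygenase (MIOX) opens the inositol ring to give glucuronic acid, a precursor of cell wall sugars, and so draws on the same inositol.

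Vagad drought plants 1 and 2 gave arrays unlike the rest. The array median was 323 for plant 1 and 346 for plant 2, while the other arrays ranged between 61.3 and 74.7. Across probe sets, these arrays reached a median Spearman correlation of 0.596 (plant 1) and 0.441 (plant 2) with the remaining 10, which reached 0.944 to 0.957 with one another. Tag controls, which have no cotton target, had a median of 89.0 in plant 1 and 96.7 in plant 2, compared with 1.36 to 7.43 elsewhere. The comparisons below therefore rest on the 10 arrays, in which Vagad drought plant 3 is the only plant of its group and is assumed to vary like the plants of the other groups, and plants 1 and 2 are given apart. The 3'/5' log2 ratio of the actin control, a sign of RNA integrity, was 3.21, 2.44 and 5.37 in Vagad drought plants 1 to 3, the last being the highest of all 12 arrays, and 3.64 was the lowest of the 10 arrays. Its part in the results on plant 3 was not tested. Of the tissue markers sought, 1 leaf probe set was annotated, the D1 subunit of the photosystem reaction center, which was above the array median on 11 of the 12 arrays. For seed 3 were annotated, all of a broad family of lipid transfer and seed storage proteins, with 1 above the median on all 12 arrays, and 0 were annotated for root or flower.

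Signals are given on the log2 scale after quantile normalization. Signals below 3.37 were raised to that floor. Levels were set against each other only within a probe set, since probe sets differ in how brightly they report a transcript. Leaf RNA is a mixture of cell types, and fewer cells of a type cannot be told apart from less RNA per cell. Probe sets of the same enzyme may report the same transcript, and those whose name ends in _s_at can report several related transcripts, so the members are not independent of each other. A probe set was tested when it lay above its own array's median on at least 3 of the 10 arrays, as 12613 probe sets did. Of the 8 members, 6 passed, each above the median on all 10 arrays. The pair annotated as MIOX1 did not pass, with the Ghi probe set above the median on 1 array and the GhiAffx probe set on 0.

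The members had been chosen by the study for a difference between the accessions, within the irrigated plants, within the drought plants, or both. Differences of that kind, and each accession's drought response, which uses the same arrays, are therefore given as descriptions with no test. Tests were kept to 3 comparisons. The mean drought difference, which averages the drought response of the accessions with equal weight, was tested for all 6 members that passed. The choice was made between accessions rather than on drought, but it used the same arrays. With 1 Vagad drought plant in the 10 arrays, this comparison is therefore not fully independent of the choice. The difference between the accessions under irrigation was tested for members chosen on drought plants. That under drought was tested for members chosen on irrigated plants. In these comparisons the choice had used other arrays. The lists rested on RMA values, another summary of the probes that is not analysed here. Array titles gave the phenotype, with tolerant read as Vagad and sensitive as RAHS-14. In the 10 arrays P5CS2, raffinose synthase, MIPS2 and the GraAffx probe set of inositol oxygenase ran opposite to the direction in which their list names them, and the MIOX1 pair ran the same way. Whether the accession names of the lists or of the arrays are exchanged was not tested. Every direction between Vagad and RAHS-14 given here rests on the array titles read in this way. The mean drought difference, which weights the accessions equally, would be the same with the names exchanged.

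In the mean drought difference both P5CS2 probe sets and both raffinose synthase probe sets rose by more than 3-fold, MIPS2 differed by 0.19 on the log2 scale and the bright inositol oxygenase probe set was lower by less than 2-fold. With limma's moderated test, called at a Benjamini-Hochberg adjusted p under 0.05 over all probe sets tested and a fold of at least 2, 4 of the 6 tested members were called higher and 0 lower. Over all 12613 probe sets tested, 2.93% were called higher and 3.82% lower. In numbers, 370 were called higher and 482 lower, and 299 higher and 596 lower when the arrays were aligned at their medians instead. The median mean drought difference was 1.71 over the 6 tested members and -0.0028 over all probe sets tested. Of the 6 member differences, 5 lay above 0 and 1 below it. With the 12 arrays fitted together 7 members passed the filter, and 3 of the 4 above were again called higher. Of all 12883 probe sets then tested, 1.3% were called higher. The GraAffx probe set of P5CS2 was no longer called. The Ghi probe set of MIOX1, which had not passed the filter on the 10 arrays, was called. It passed only through the Vagad drought plants, the group in which it was listed as higher, so that call is left out of the count.

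**Figure D1:**
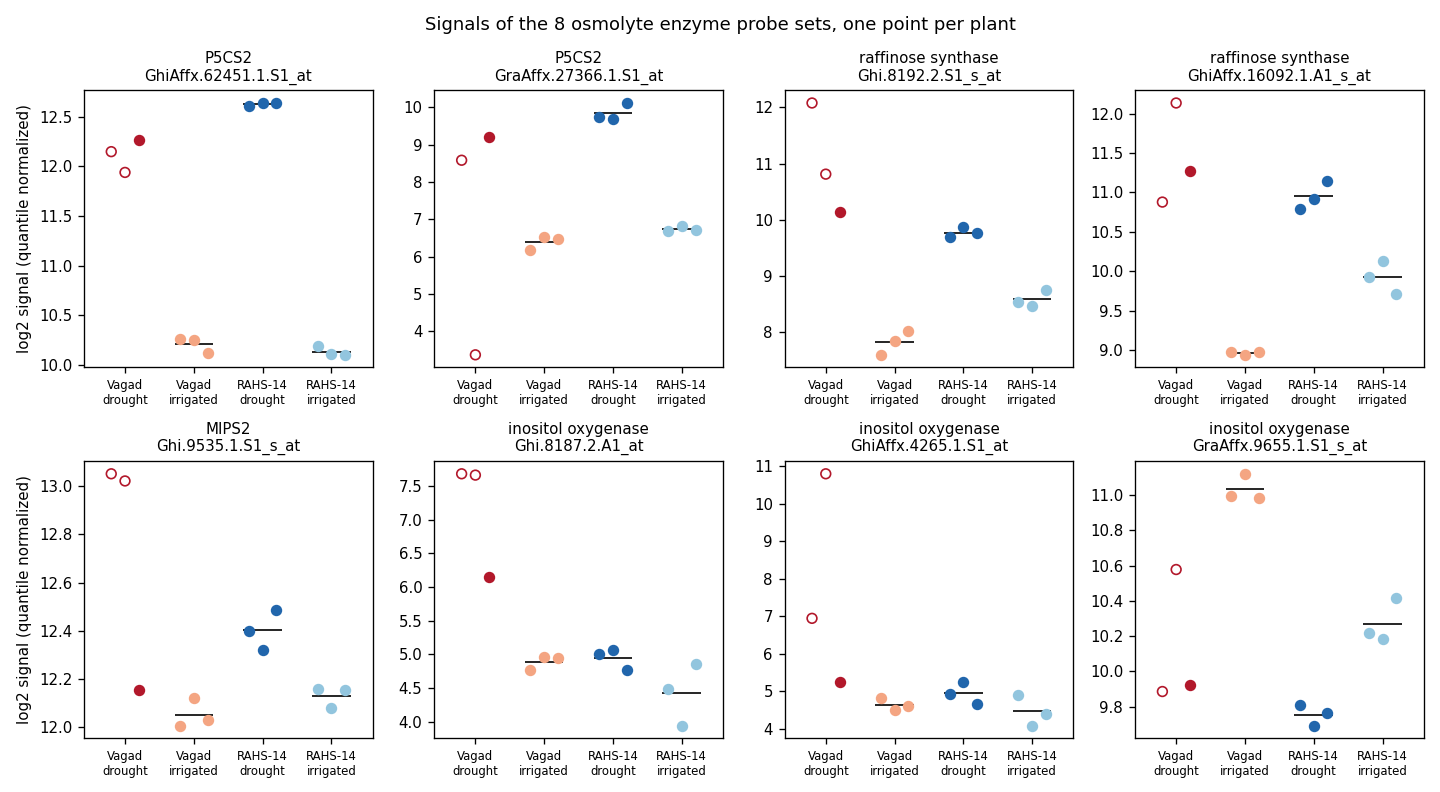
Normalized log2 signals of the 8 probe sets (vertical axes, each with its own range), with a point for each plant in the order of its number. Filled points are the 10 arrays of the main comparisons, open points are Vagad drought plants 1 and 2, and lines are means of groups with 3 filled points. Both P5CS2 panels and both raffinose synthase panels show every filled drought point above every filled irrigated point of the same accession.

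P5CS2, an enzyme of proline synthesis, had the largest mean drought differences of the 6 tested members, and in both accessions its drought and irrigated plants in the 10 arrays were widely separated. GhiAffx.62451.1.S1_at had a log2 signal of 12.26 in Vagad drought plant 3, against 10.26, 10.25 and 10.12 in the Vagad irrigated plants. The RAHS-14 drought plants had 12.61, 12.64 and 12.64, against 10.19, 10.11 and 10.10 in the irrigated plants. With 12.15 and 11.94 in Vagad drought plants 1 and 2, all 6 drought plants lay above all 6 irrigated plants. The deposited signals were 3124, 2068 and 5194 in Vagad drought plants 1 to 3, against 1097 to 1239 in the Vagad irrigated plants. Array medians were 323 and 346 in plants 1 and 2, against 61.3 to 65.3 in the Vagad irrigated plants. Relative to its array's median, the deposited signal was thus lower in plants 1 and 2 than in the irrigated plants.

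The mean drought difference of this P5CS2 probe set was 2.27 (SE 0.06, limma adjusted p = 9.72e-08), or 4.83-fold, and 39 of the 12613 probe sets tested had a larger one. With the 12 arrays it was 2.20 (limma adjusted p = 0.000122). The response was 2.05 in Vagad (plant 3 minus the irrigated mean) and 2.50 in RAHS-14. Plants 1 and 2 of Vagad gave 1.94 and 1.73, so each of the 3 Vagad drought plants showed a smaller response than each RAHS-14 drought plant. The arrays of plants 1 and 2 were unlike the rest, and how many of all probe sets are separated like this was not counted. Under drought the difference between Vagad plant 3 and the RAHS-14 plants was -0.37 for this probe set and -0.66 for its GraAffx partner, given with no test. The study's list names both as higher in Vagad under drought.

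The GraAffx probe set of P5CS2 repeated the pattern. It had 9.20 in Vagad drought plant 3, against 6.19, 6.54 and 6.47 in the Vagad irrigated plants. The signals in RAHS-14 were 9.75, 9.70 and 10.12 in the drought plants, against 6.69, 6.83 and 6.72 in the irrigated plants. The groups did not overlap, and the Vagad plant was the lowest of the 4 drought plants. The other Vagad drought plants differed from each other: plant 1 had 8.58, while plant 2 was at the floor of 3.37, below every irrigated plant, with deposited signals of 558 and 23.6.

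The mean drought difference of the GraAffx probe set was 2.96 (SE 0.12, limma adjusted p = 6.12e-07), or 7.77-fold, with 15 probe sets higher. With the 12 arrays it was 1.88 and not called (limma adjusted p = 0.226), the single plant at the floor being among them. Its response was 2.80 in Vagad plant 3 and 3.11 in RAHS-14, 6.99-fold and 8.64-fold. Over the 10 arrays, which fall into groups, the pair of P5CS2 probe sets had a Pearson r of 0.99.

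As both P5CS2 probe sets had been chosen on drought plants, their difference between the accessions under irrigation could be tested. GhiAffx.62451.1.S1_at averaged 10.21 ± 0.08 in Vagad irrigated plants and 10.14 ± 0.05 in RAHS-14 irrigated plants (SD, n = 3 each), a difference of 0.08 with a 95% interval of -0.08 to 0.24 (limma adjusted p = 0.459). GraAffx.27366.1.S1_at averaged 6.40 ± 0.19 in Vagad irrigated plants and 6.75 ± 0.07 in RAHS-14 irrigated plants, a difference of -0.35 with an interval of -0.65 to -0.05 (limma adjusted p = 0.0977). In the first the plants overlapped, and in the second each Vagad plant lay below each RAHS-14 plant. Neither was called, while 3.73% of all probe sets tested were called in either direction.

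Raffinose synthase rose in the mean drought difference, and in each accession its drought plants in the 10 arrays lay above its irrigated plants, by 4.93-fold and 5.0-fold in Vagad plant 3 and by 2.04-fold and 2.27-fold in RAHS-14. The Ghi probe set had 10.15 in Vagad drought plant 3, against 7.60, 7.84 and 8.03 in the Vagad irrigated plants. For RAHS-14 the signals were 9.70, 9.87 and 9.76 under drought, against 8.55, 8.47 and 8.76 in the irrigated plants. At 12.08 and 10.81, Vagad drought plants 1 and 2 lay above all other plants. The 4 groups of the 10 arrays did not overlap: Vagad held both the highest plant, under drought, and the 3 lowest, under irrigation.

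The GhiAffx probe set of raffinose synthase, annotated as a galactosyltransferase and hydrolase, gave the same order of groups. It had 11.27 in Vagad drought plant 3, against 8.98, 8.94 and 8.98 in the Vagad irrigated plants. RAHS-14 plants had 10.79, 10.92 and 11.15 under drought, against 9.93, 10.13 and 9.71 in the irrigated plants. Plants 1 and 2 of the Vagad drought group had 10.88 and 12.14, which put plant 1 within the range of the RAHS-14 drought plants and plant 2 above it. The pair of raffinose synthase probe sets had a Pearson r of 0.97 over the 10 arrays.

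The mean drought difference was 1.75 (SE 0.11, limma adjusted p = 5.39e-06), or 3.37-fold, for the Ghi probe set of raffinose synthase. For the GhiAffx probe set it was 1.67 (SE 0.11, limma adjusted p = 6.94e-06), or 3.17-fold. Among the 12613 probe sets tested, 85 and 98 had a larger one. With the 12 arrays both were again called, at 2.18 (limma adjusted p = 0.00368) and 1.75 (limma adjusted p = 0.00308).

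The response of the Ghi probe set was 2.32 in Vagad plant 3 and 1.18 in RAHS-14. That of the GhiAffx probe set was 2.30 in Vagad plant 3 and 1.03 in RAHS-14. The responses thus differed by 1.14 and 1.27 on the log2 scale, given with no test because the irrigated arrays had chosen these members. Vagad plants 1 and 2, each set against the Vagad irrigated mean, gave 4.25 and 2.99 for the first probe set. For the second they gave 1.91 and 3.17. Each of the 3 Vagad plants thus showed a larger response than any RAHS-14 plant. The arrays of plants 1 and 2 were unlike the rest, and the share of all probe sets separated in this way was not counted.

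**Figure D2:**
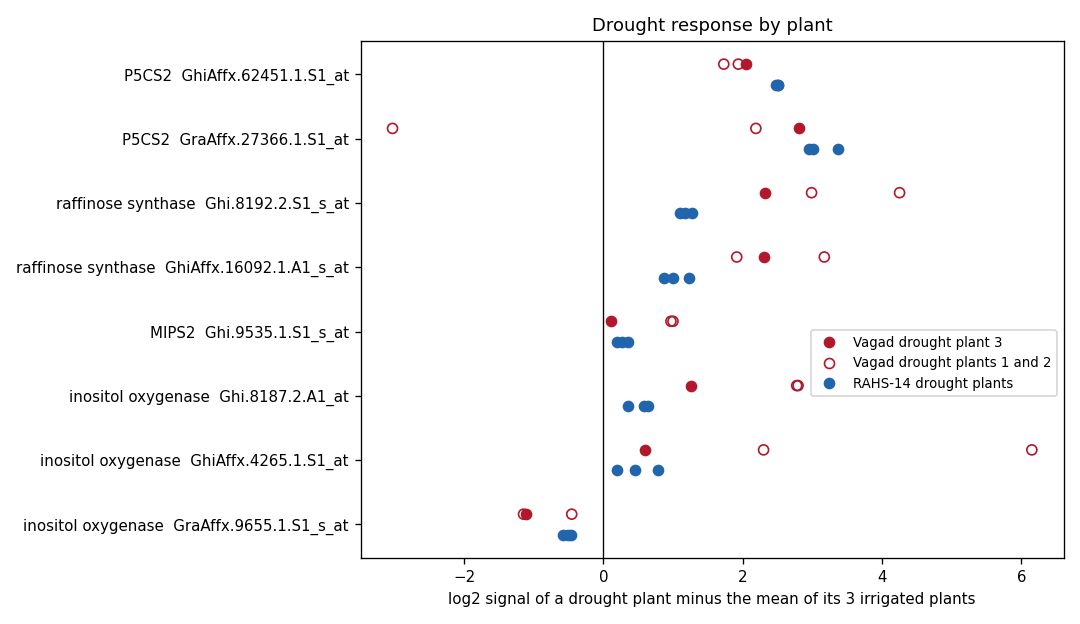
Log2 signal of each drought plant minus the mean of the 3 irrigated plants of its accession (horizontal axis) for the 8 probe sets, with Vagad above RAHS-14 in each row. For both raffinose synthase probe sets every Vagad plant lies to the right of every RAHS-14 plant, and for the GhiAffx probe set of P5CS2 every Vagad plant lies to the left. The open circle at -3.03 is Vagad plant 2, at the floor for the GraAffx probe set of P5CS2.

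Under drought, where these 2 probe sets could be tested, the accessions were not called different. The Ghi probe set was at 10.15 in Vagad plant 3 and 9.77 ± 0.09 in RAHS-14 (SD, n = 3 plants), a difference of 0.37 with a 95% interval of -0.03 to 0.77 (limma adjusted p = 0.146). The GhiAffx probe set was at 11.27 in Vagad plant 3 and 10.95 ± 0.18 in RAHS-14 (SD, n = 3 plants), a difference of 0.31 with an interval of -0.08 to 0.71 (limma adjusted p = 0.21). These intervals reach differences of more than 1.5-fold, and they rest on 1 Vagad plant. Of all probe sets tested, 8.54% were called in either direction. With the 12 arrays the differences were 1.24 (limma adjusted p = 0.0812) and 0.47 (limma adjusted p = 0.298), in a fit whose median over all probe sets was -0.72.

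Under irrigation, the contrast on which they had been listed as higher in Vagad, both raffinose synthase probe sets were lower in Vagad in these signals. Ghi.8192.2.S1_s_at averaged 7.82 ± 0.21 in Vagad irrigated plants and 8.59 ± 0.15 in RAHS-14 irrigated plants (SD, n = 3 each), a difference of -0.77. GhiAffx.16092.1.A1_s_at averaged 8.96 ± 0.02 in Vagad irrigated plants and 9.92 ± 0.21 in RAHS-14 irrigated plants, a difference of -0.96. The plants did not overlap in either. Of the 12613 probe sets tested, 483 had a lower difference than the Ghi probe set and 290 a lower one than the GhiAffx probe set.

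MIPS2, which makes inositol phosphate, was above the median of all 10 arrays, and its group means there ranged between 12.05 and 12.40. Its probe set had 12.16 in Vagad drought plant 3, against 12.01, 12.12 and 12.03 in the Vagad irrigated plants. The RAHS-14 plants had 12.40, 12.32 and 12.49 under drought, against 12.16, 12.08 and 12.15 in the irrigated plants. The drought plants lay just above the irrigated plants of their accession, by 0.10 in Vagad plant 3 and 0.27 in RAHS-14.

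The mean drought difference of MIPS2 was 0.19 (SE 0.06, limma adjusted p = 0.0418), under the fold limit and so not called, and 3766 probe sets had a larger one. In Vagad drought plants 1 and 2 the signals were 13.05 and 13.02, above every other plant. With them in the fit the mean drought difference was 0.48 (limma adjusted p = 0.205). The direction between the accessions under drought turned with these plants: -0.25 in the 10 arrays, with plant 3 below each RAHS-14 plant, and 0.34 in the 12 arrays. The study listed MIPS2 as higher in Vagad in both conditions. Under irrigation MIPS2 averaged 12.05 ± 0.06 in Vagad plants and 12.13 ± 0.04 in RAHS-14 plants (SD, n = 3 each), and the plants overlapped. The GraAffx probe set with the misspelled MIPS2 annotation was dim, at 4.33 in Vagad drought plant 3, 4.49 to 5.26 in Vagad irrigated plants, 4.03 to 5.07 in RAHS-14 drought plants and 4.29 to 4.88 in RAHS-14 irrigated plants. It was at the floor in Vagad drought plant 1 and at 9.42 in plant 2.

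Inositol oxygenase, which uses inositol up, was lower under drought in its bright probe set, while its dim pair did not pass the filter on the 10 arrays. The bright one, with the prefix GraAffx, had 9.92 in Vagad drought plant 3, against 11.00, 11.12 and 10.98 in the Vagad irrigated plants. Drought plants of RAHS-14 had 9.81, 9.69 and 9.76, against 10.22, 10.18 and 10.41 in the irrigated plants. Every drought plant of the 10 arrays lay below every irrigated plant, and Vagad irrigated plants were the highest. Of the Vagad drought plants given apart, plant 1 had 9.89 and plant 2 had 10.58, above the RAHS-14 irrigated plants.

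The mean drought difference of this probe set was -0.81 (SE 0.07, limma adjusted p = 5.48e-05), a fall of 1.76-fold that stayed under the fold limit. In the 12 arrays it was -0.71 (limma adjusted p = 0.0631). The response was -1.11 in Vagad plant 3 and -0.52 in RAHS-14. This probe set had been listed as higher in RAHS-14 under irrigation. Of the 12613 probe sets tested, 422 had a difference further toward Vagad in that contrast. In these signals the inositol oxygenase probe set averaged 11.03 ± 0.08 in Vagad irrigated plants and 10.27 ± 0.13 in RAHS-14 irrigated plants (SD, n = 3 each), 0.76 higher in Vagad without overlap. Under drought, where it could be tested, the difference between Vagad plant 3 and RAHS-14 was 0.17 with a 95% interval of -0.10 to 0.45 (limma adjusted p = 0.322), and with the 12 arrays it was 0.38 (limma adjusted p = 0.293).

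The dim pair, annotated as MIOX1 and listed as higher in Vagad under drought, lay low in most plants. The Ghi probe set had 6.14 in Vagad drought plant 3, against 4.76, 4.96 and 4.94 in the Vagad irrigated plants. In drought plants of RAHS-14 it had 5.01, 5.06 and 4.77, against 4.48, 3.94 and 4.85 in the irrigated plants. Plant 3 was the highest of the 10 arrays, while the RAHS-14 drought and irrigated plants overlapped. Higher still were Vagad drought plants 1 and 2, at 7.68 and 7.66. Deposited signals of this probe set were 448, 534 and 72.7 in Vagad drought plants 1 to 3 and 16.9 to 35.0 in the other 9 plants.

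The GhiAffx probe set annotated as MIOX1 had 5.24 in Vagad drought plant 3, against 4.82, 4.52 and 4.61 in the Vagad irrigated plants. In RAHS-14 plants the signals were 4.93, 5.26 and 4.66 under drought, against 4.92, 4.09 and 4.40 in the irrigated plants. Plant 3 lay within the range of the RAHS-14 drought plants. The values of 6.95 and 10.80 in Vagad drought plants 1 and 2 differed from each other by more than all other plants did. The pair had a Pearson r of 0.70 over the 10 arrays, while r with the bright inositol oxygenase probe set was -0.16 for the Ghi probe set and -0.41 for the GhiAffx probe set. The differences between Vagad plant 3 and RAHS-14 under drought were 1.20 and 0.29, given with no test. With no filter on low signals, the mean drought difference on the 10 arrays was 0.89 for the Ghi probe set (limma adjusted p = 0.0164) and 0.53 for the GhiAffx probe set (limma adjusted p = 0.12), both under the fold limit. With all 12 arrays the Ghi probe set passed the filter only through Vagad drought plants 1, 2 and 3, the group in which it was listed as higher. Its call as higher in that fit is therefore no independent support. The mean drought difference was then 1.40, over a response of 2.275 in Vagad and 0.52 in RAHS-14. On the arrays of plants 1 and 2, where the pair was brightest, tag controls were raised as well, and their part in these signals was not tested.

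Counting members whose plants did not overlap and differed at least 2-fold, with no test, 5 were higher and 1 was lower in the drought plant 3 of Vagad against its irrigated plants. The 5 were both P5CS2 probe sets, both raffinose synthase probe sets and the Ghi probe set of MIOX1, which had not passed the filter, and the lower one was the GraAffx probe set of inositol oxygenase. Among all 12613 probe sets tested 5.16% were higher and 6.41% lower in that way, 1 plant against 3. In RAHS-14, 3 plants against 3, 4 members were higher and 0 lower, against 3.53% and 4.66% of all probe sets. As these responses share arrays with the choice of members, the counts describe the members only.

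**Figure D3:**
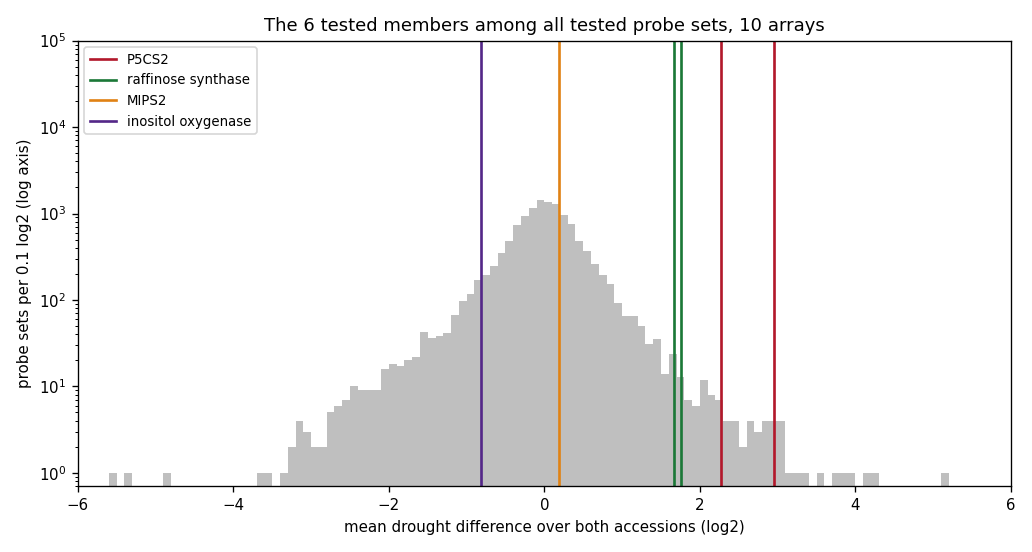
Number of probe sets per 0.1 log2 (vertical axis, log scale) by mean drought difference over both accessions (horizontal axis, log2) for the 12613 probe sets tested on the 10 arrays, with a vertical line for each of the 6 tested members. The P5CS2 lines at 2.27 and 2.96 and the raffinose synthase lines at 1.75 and 1.67 lie in the upper tail, MIPS2 at 0.19 in the body and inositol oxygenase at -0.81 on the lower side.

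The other osmolyte and inositol enzymes annotated in the same 4 lists numbered 14, of which 13 passed the filter. On the 10 arrays none of the 13 reached a 2-fold mean drought difference, and none was called with limma on the 12 arrays. Of their differences on the 10 arrays, 4 lay above 0. The median of the 13 was -0.17, against -0.0028 over all probe sets tested. The 3 probe sets annotated as trehalose-phosphatase were all lower, with differences of -0.60, -0.50 and -0.50. Those at -0.50 are annotated as transferring glycosyl groups as well. Trehalose-phosphatase frees the sugar trehalose from its phosphate. For trehalose-phosphate synthase, the step before it, one probe set was lower, with a difference of -0.17 (limma adjusted p = 0.0349), and the other had -0.10 (limma adjusted p = 0.538).

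Enzymes of polyamines, small nitrogen-rich cations, went both ways. Both probe sets annotated as spermidine synthase were higher, by 0.87 and 0.45. In the first the drought and irrigated plants overlapped, and the second is annotated as spermine synthase as well. Polyamine oxidase 5, which breaks polyamines down, was lower in both of its own, with differences of -0.37 (limma adjusted p = 0.0113) and -0.50 (limma adjusted p = 0.00286). Spermine synthase had -0.16 (limma adjusted p = 0.0509).

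The inositol phosphate enzymes differed by less than 2-fold on average. The inositol trisphosphate kinase was higher by 0.26 (limma adjusted p = 0.0266). The inositol polyphosphate 5-phosphatase, which strips phosphate from inositol phosphate signals, had a mean of -0.18 (limma adjusted p = 0.263) over a response of -1.21 in Vagad plant 3 and 0.86 in RAHS-14. Sucrose synthase had 0.01 (limma adjusted p = 0.977). With all 12 arrays, where the median over all probe sets was -0.36, the inositol trisphosphate kinase had -0.48, the first spermidine synthase probe set -0.01 and the 5-phosphatase 0.67, against the direction above, with limma adjusted p of 0.703, 0.992 and 0.721. Sucrose synthase then had -1.69 (limma adjusted p = 0.247), its response being -4.71 and -6.39 in Vagad drought plants 1 and 2 and -0.44 in plant 3. The trehalose-phosphatase and polyamine oxidase probe sets remained lower and the second spermidine synthase probe set higher under each of the 4 other scalings, 2 of 10 arrays and 2 of 12, without passing the adjusted p in those of 12. Aligned at their medians, the 10 arrays gave the kinase 0.11 (limma adjusted p = 0.394), and as the authors scaled them, they gave the lower trehalose-phosphate synthase probe set -0.12 (limma adjusted p = 0.11).

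**Figure D4:**
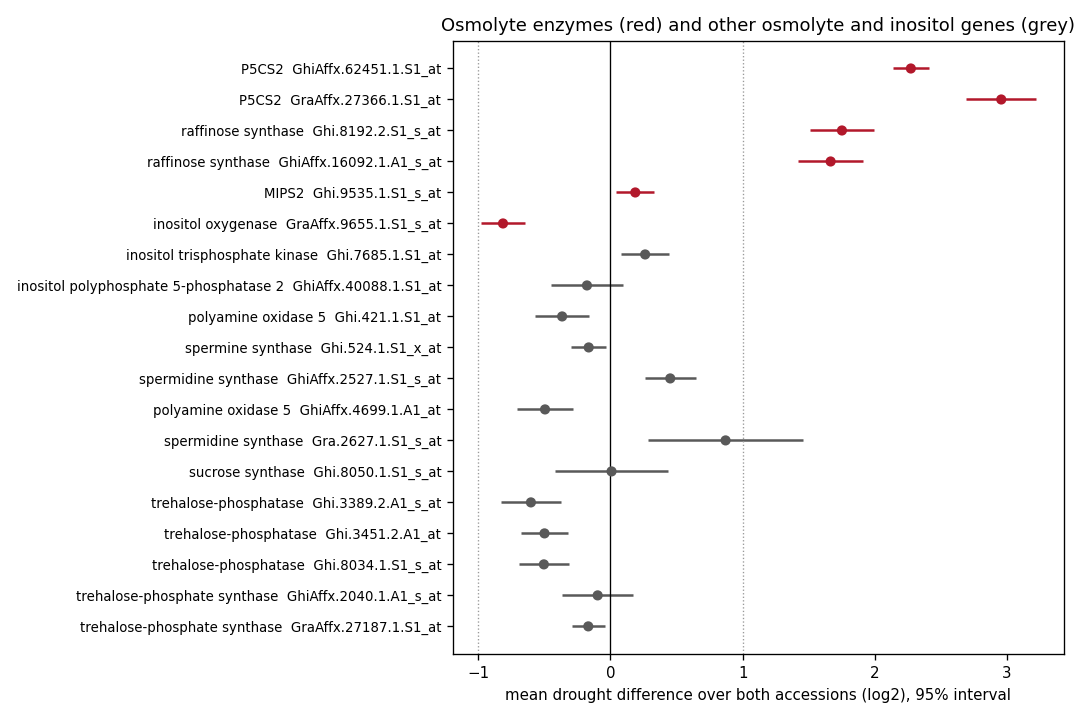
Mean drought difference over both accessions (horizontal axis, log2) with its 95% interval on the 10 arrays, for the 6 tested members in red and the 13 tested probe sets of other osmolyte and inositol genes in grey. Dotted lines mark the 2-fold limit, which the P5CS2 and raffinose synthase probe sets alone pass among those drawn.

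For the brightest probe set of each enzyme, the 3 most alike among the probe sets tested were sought by Pearson r over the 10 arrays, which fall into groups, so that r mostly repeats the order of the groups. Around the GhiAffx probe set of P5CS2 the 3 had r of 0.993 to 0.995, each higher under drought by 1.06 to 1.17 in Vagad plant 3 and by 1.35 to 1.49 in RAHS-14. Around the GhiAffx probe set of raffinose synthase r was 0.991 to 0.994, and the closest had a response of 1.99 in Vagad plant 3 and 0.94 in RAHS-14. Those around the bright inositol oxygenase probe set had r of 0.987 to 0.990, the closest with a response of -1.84 in Vagad plant 3 and -0.96 in RAHS-14. None of these has a gene name in the annotation used. For MIPS2 one of the 3 was named, a heat shock protein, with r of 0.967 and a response of 0.76 in Vagad plant 3 and 1.93 in RAHS-14.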

How the data were processed

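Deposited values are intensity signals on a linear scale, which the authors computed with MAS5 (per the labels) and scaled to a trimmed mean of about 500.1 on each array. The methods analysed RMA values, which are not used here. Of 24132 probe sets, 103 controls were left out. The 10 arrays without Vagad drought plants 1 and 2 were quantile normalized, those 2 were brought to the same distribution, and log2 was taken after setting a floor at the 20th percentile (10.3). With R 4.3.3 and limma 3.58.1, 4 group means were fitted by lmFit and eBayes on 10 arrays, with all 12 beside them, and p-values were adjusted over all probe sets tested. Simulated data with known changes were used to test the fit. Plots came from matplotlib 3.10.9 in Python 3.11.15. The number of arrays limits the precision.

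Named probe sets are all members, those matching a keyword list of osmolyte and inositol enzymes, and the 3 most alike per enzyme. Members, lists, tests and alternatives were chosen with earlier results of these data known. The alternatives were all 12 arrays, other scalings, floors and filters, another spread estimate, array weights, replicate number as a block, no fold limit, the methods' t-test, the irrigated groups alone and leaving out each array. The platform table, which names 756 probe sets but 0 members, was not used for names. Transcriptome libraries and the quantitative gene expression assay, read by mass spectrometry, were not analysed here.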

Additional observations from a re-analysis of the deposited data

Results flagged for a closer look

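The MIOX1 pair gave signals on the arrays of Vagad drought plants 1 and 2, outside the main comparisons, above the highest of the other 10 arrays. On the linear scale after normalization the Ghi probe set reached 205 in plant 1 and 203 in plant 2, and the GhiAffx probe set reached 124 in plant 1 and 1785 in plant 2. Tag controls were raised on the same arrays, and their part was not tested.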

How the results depend on the processing

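Each of the 6 members tested on the 10 arrays kept its direction in the mean drought difference under all 21 alternatives, 9 of which leave out 1 array each. Alternatives that changed only the filter, the spread estimate or the fold limit on these arrays left the differences as they were, so direction could not change there. The GhiAffx probe set of P5CS2 was called in 21 of them, at 2.15 to 2.31 with a limma adjusted p of 0.00854 at most. The GraAffx probe set was called in 18, and lost the call in the 3 that use all 12 arrays: 1.88 with the 2 arrays added, 1.45 with the 12 quantile normalized together and 2.26 with array weights. The Ghi probe set of MIOX1 was not tested on the 10 arrays. It passed the filter of the 12 arrays and the filter by group only through Vagad drought plants, the group in which it was listed as higher. Its calls are therefore no independent support. They came at 1.40 with the 12 arrays and 1.22 with the 12 normalized together, which kept the count of members at 4. It was not called with array weights (1.37), with a filter by group (0.89, under the fold limit) or with no filter. Raffinose synthase was called in 20 of 21 for both probe sets, and lost the call with array weights on 12 arrays (2.30 and 1.67, adjusted p = 0.0625 and 0.128), which left 1 member called in place of 4. The weights were 0.033, 0.014 and 0.025 for Vagad drought plants 1, 2 and 3, and 0.94 to 6.63 for the other arrays. Plant 3 was thus weighted down along with plants 1 and 2. With no fold limit MIPS2 and the bright inositol oxygenase probe set passed at 0.19 and -0.81.

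Over all probe sets, 852 were called in the mean drought difference, against 434 with 12 arrays, 365 with the 12 normalized together, 88 with array weights and 5313 with no fold limit. Between the accessions under irrigation 470 were called, against 24, 25 and, with no fold limit, 2568. Under drought 1077 were called, against 346, 282, 0 with limma's array weights (1777 at an unadjusted p under 0.05 and the fold limit) and 3377 with no fold limit. The cause was not tested. Aligning the arrays at their medians shifted the median mean drought difference by -0.12 and gave 299 higher and 596 lower calls, in place of 370 and 482.

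Leaving out each replicate in turn gave 4 members in each fit and 800 to 861 probe sets called in the mean drought difference, 0 members and 961 to 1097 probe sets between the accessions under drought, and 0 members and 415 to 482 probe sets under irrigation. Without Vagad drought plant 3 the 2 comparisons that use it could not be made. In the 3 groups of 3 plants, plants with the same number did not deviate together (0 of 9 pairs over a correlation of 0.1). Vagad drought was not part of that check, and whether plants with the same number shared any handling was not tested. The replicate block changed the call of no member.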
